A study of Bos taurus with 30 samples.

Results

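Prostaglandin production and the nuclear receptor PPARG were followed in day 15 bovine conceptuses through 10 genes: PLA2G4A, PTGS1, PTGS2, PTGES, PTGES2, PTGES3, SLCO2A1, HPGD, PTGER2 and PPARG. They are the rows of the count table whose Entrez gene ID carries one of these cattle symbols, and 10 of 10 were found among the 35092 genes of the table. The rule that picks them uses no measured value, but the members were chosen with earlier results of these data known. Counts of members called, set beside the shares over all genes, are therefore descriptions only. Each member is described in both tissues and under both procedures of embryo production.

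The conceptuses were produced in vitro (IVP, 8 embryos) or in vivo (IVV, 9 embryos) and were flushed from the uterus on day 15 of gestation, when the bovine embryo elongates. According to the paper, IVP conceptuses were shorter on average than IVV conceptuses, and a disc was found in a smaller share of them. Embryos without a disc were discarded. The part of embryo length in the differences below was not tested. IVP embryos came from oocytes of slaughterhouse ovaries that were matured and fertilized in the laboratory, kept in serum-free medium to the blastocyst stage and then transferred to recipient cows. IVV embryos came from superovulated donor cows that were artificially inseminated, and the same Holstein bull sired all embryos of both procedures. Poly(A) RNA was sequenced from sections of the embryonic disc (ED, the part that forms the fetus) in 7 IVP and 9 IVV embryos, and of the extra-embryonic membranes (EEM, trophectoderm with its hypoblast lining) in 6 IVP and 8 IVV embryos, giving 30 libraries. Since only a pair of recipient cows and a pair of donors were used, and only the donors were superovulated, the procedure, the cow and the hormone treatment cannot be told apart. Embryos of one procedure also shared a uterus, so the p-values measure the spread between embryos and not between cows.

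Prostaglandins are made from arachidonic acid, which cytosolic phospholipase A2 (PLA2G4A) cuts out of membrane phospholipids. The cyclooxygenases PTGS1 and PTGS2 turn it into prostaglandin H2, and terminal synthases such as PTGES make prostaglandin E2 from that. SLCO2A1 carries prostaglandins into cells and HPGD oxidizes them to inactive forms, while PTGER2 is a receptor for prostaglandin E2 and PPARG a nuclear receptor that binds fatty acids and their derivatives. The elongating ruminant conceptus is known as a source of prostaglandins, and the cyclooxygenase pathway and PPARG have both been tied to its elongation.

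Library totals ran from 48713218 to 63037371 counts, and levels are given as CPM, counts scaled to library size, after TMM scaling over all 30 libraries. The tissue labels held for the disc markers: 8 of the 9 tested epiblast and early mesoderm markers were lower in the EEM, among them POU5F1 with a log2 difference of -5.38, although TDGF1 was higher and SOX2, which marks the epiblast, was listed at 0 in all libraries. The ED libraries also held trophoblast transcripts, with summed CPM of 13 trophoblast markers of 11618 to 64313 in IVP and 25967 to 40452 in IVV discs, against 28553 to 67693 and 30857 to 49144 in the EEM. KRT8, KRT18 and TKDP1 made up most of these sums, with means of 14859, 9569.5 and 7971.4 CPM in IVP discs. XIST, the RNA made by the inactive X chromosome of female cells, stayed under 1 CPM in 8 of 8 IVP embryos and exceeded 40 CPM in 7 of 9 IVV embryos, the exceptions being VE3 and VE5, so that its level and the procedure were largely linked. Embryos VE19 (IVV) and IVPF10 (IVP, disc only) were low in several members and are named where that matters. In these bulk samples, fewer cells of a type and less RNA per cell cannot be told apart.

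The first question was whether the pathway differed between IVP and IVV embryos. HPGD and PLA2G4A were higher in IVP embryos, in the disc as well as in the membranes, and no member was lower in either tissue. Of the 10 members, 8 passed the filter on low counts in every comparison, and PPARG and PTGER2 did not. The test was the quasi-likelihood F test of edgeR, and p-values were adjusted over all genes by Benjamini and Hochberg, with a threshold of 0.05. In the ED 2 of 8 were higher and 0 of 8 lower in IVP, where 1.4% of the 15733 tested genes were higher and 4.95% lower. In the EEM it was again 2 of 8 higher and 0 of 8 lower, where 2.29% of 14718 genes were higher and 1.52% lower. The median log2 fold change of the 8 members was 0.77 in the ED and 0.52 in the EEM, and that of all genes tested was -0.0079 and 0.0038.

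PLA2G4A (Entrez gene 525072) opens the pathway. Its level in the ED had a lowest, median and highest value of 2.20, 6.05 and 10.9 CPM over 7 IVP libraries and of 0.0605, 1.83 and 3.43 CPM over 9 IVV libraries. In the EEM the same values were 2.86, 5.00 and 6.56 CPM over 6 IVP libraries and 0.0214, 1.94 and 3.28 CPM over 8 IVV libraries. The groups overlapped in both tissues, but 5 of 7 IVP discs and 5 of 6 IVP membranes lay above the highest IVV library of their tissue. The difference was 1.57 on the log2 scale (SE 0.45, 2.96-fold, adjusted p = 0.0368) in the ED and 1.56 (SE 0.44, 2.94-fold, adjusted p = 0.0430) in the EEM. The lowest IVV value in each tissue came from VE19, with 3 counts in the disc and 1 count in the membranes. Without this embryo the difference was 1.37 (adjusted p = 0.00643) in the ED and 1.23 (adjusted p = 0.00829) in the EEM. The call was less firm than that of HPGD: leaving out any 1 of 7 embryos in the ED (IVP10, IVPF15, VE24, VE26, VE28, VE29, VE3) raised the adjusted p above the threshold, the highest being 0.0940. In the EEM it did so for 7 embryos as well (IVP10, IVP11, VE24, VE26, VE29, VE4, VE5), with 0.147 as the highest, and the direction held each time. The largest EEM difference, 2.20 (adjusted p = 0.00334), came without VE28. The call also ended with limma in the ED (adjusted p = 0.0760), and in the EEM with DESeq2 (adjusted p = 0.0769) and with no surrogate variable (adjusted p = 0.113).

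HPGD (Entrez gene 512259), the enzyme that starts prostaglandin breakdown, had low counts but the clearest difference. Its lowest, median and highest levels in the ED were 0.401, 1.28 and 3.92 CPM in IVP and 0.181, 0.396 and 0.928 CPM in IVV embryos. EEM levels were 0.632, 1.99 and 3.42 CPM in IVP and 0.136, 0.647 and 1.43 CPM in IVV embryos. Raw counts lay between 7 and 174 per library, and 6 of 7 IVP discs and 4 of 6 IVP membranes exceeded every IVV library of their tissue. IVPF10 was the disc that fell inside the IVV range, and IVP10 was the lowest of the IVP membranes. HPGD was higher in IVP embryos by 1.91 on the log2 scale (SE 0.34, 3.75-fold, adjusted p = 0.00102) in the ED and by 1.62 (SE 0.35, 3.08-fold, adjusted p = 0.00677) in the EEM. It stayed past the threshold when any of 16 embryos in the ED or any of 14 in the EEM was left out. Without VE5, whose membranes had the lowest HPGD, the EEM value was 1.51 (adjusted p = 0.0124).

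**Figure D1:**
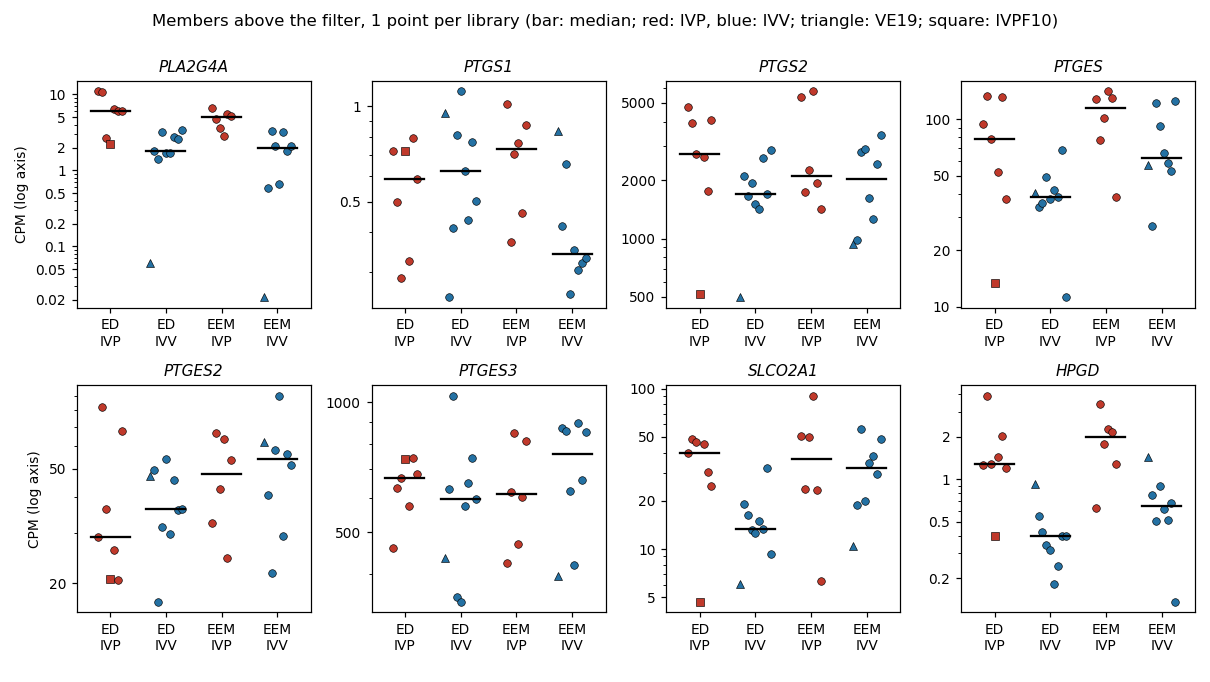
CPM of the 8 tested members on log axes, each with its own range, with 1 point per library for the ED and EEM of IVP (red) and IVV (blue) embryos and a bar at the median of each group. HPGD and PLA2G4A sit higher in IVP than in IVV groups of both tissues with some overlap, VE19 (triangle) is lowest for PLA2G4A, and IVPF10 (square) is low for PTGS2, PTGES and SLCO2A1.

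Since XIST moved with the procedure, the 2 IVV embryos with little XIST were set beside the IVP embryos. HPGD was 0.181 CPM in the disc of VE3, and in that of VE5 it lay just below the lowest IVP disc. In their membranes it was 0.519 and 0.136 CPM, below the lowest IVP library there. PLA2G4A was 1.68 and 2.61 CPM in their discs and 3.15 and 2.10 CPM in their membranes, so that 1 of the 2 values in each tissue lay inside the IVP range. With the XIST level as a covariate, HPGD differed by 2.06 in the ED (adjusted p = 0.0311) and by 1.74 in the EEM (adjusted p = 0.316). PLA2G4A then differed by 1.66 in the ED (adjusted p = 0.216), and by 1.27 in the EEM (adjusted p = 0.779), in the same direction but past no threshold. The fit has few embryos to separate the terms, and the part of embryo sex in these differences cannot be told apart from that of the procedure in the 7 IVV embryos with XIST.

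**Figure D2:**
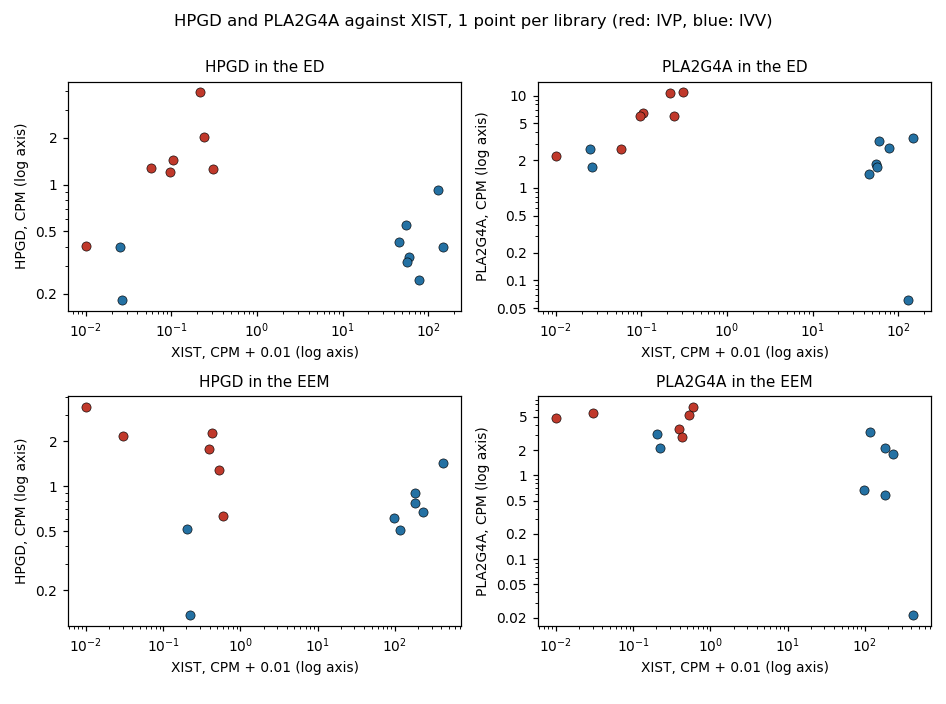
HPGD and PLA2G4A (vertical log axes, CPM) against XIST (horizontal log axis, CPM plus 0.01) in single libraries of the ED and EEM, IVP in red and IVV in blue. The IVP libraries all lie at low XIST, and the IVV embryos VE3 and VE5 are the only blue points beside them, with HPGD under the lowest red point.

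PTGS2 (Entrez gene 282023), the inducible enzyme, took between 0.0454% and 0.500% of all counts of a library. Its lowest, median and highest levels in the ED were 519, 2739 and 4788 CPM in IVP and 497, 1700 and 2873 CPM in IVV embryos. The EEM had 1415, 2094 and 5734 CPM in IVP and 936, 2023 and 3407 CPM in IVV embryos. The groups overlapped in both tissues, with 3 of 7 IVP discs and 2 of 6 IVP membranes above every IVV library. The log2 differences of 0.67 (SE 0.34, adjusted p = 0.296) in the ED and 0.59 (SE 0.35, adjusted p = 0.533) in the EEM did not pass the test. Without IVPF10, the lowest of the IVP discs, the ED value was 0.91 with an adjusted p of 0.0511, and without VE19, the lowest of the IVV discs, it was 0.53 with an adjusted p of 0.390. In the EEM the difference was 0.27 without IVPF13 (adjusted p = 0.936), the highest IVP library.

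PTGS1 (Entrez gene 282022), the constitutive enzyme, was near the bottom of the measured range, with 11 to 70 counts per library. Median levels were 0.587 CPM in IVP and 0.624 CPM in IVV discs, and 0.735 CPM in IVP and 0.342 CPM in IVV membranes. The IVP and IVV ranges overlapped in both tissues, though 5 of 8 IVV membranes lay below the lowest IVP value. The log2 difference was -0.17 (SE 0.37, adjusted p = 0.891) in the ED and 0.74 (SE 0.36, adjusted p = 0.372) in the EEM, and neither passed.

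Among the prostaglandin E synthases, PTGES (Entrez gene 282019) is the microsomal enzyme often coupled to PTGS2. Discs of IVP embryos had a lowest, median and highest level of 13.5, 78.3 and 133 CPM, and those of IVV embryos 11.2, 38.4 and 68.5 CPM. The values for membranes were 38.7, 115 and 140 CPM in IVP and 27.0, 62.2 and 124 CPM in IVV embryos. In both tissues the IVP and IVV groups overlapped, and 4 of 7 IVP discs lay above all IVV discs. The log2 differences of 0.86 (SE 0.32, adjusted p = 0.122) in the ED and 0.45 (SE 0.30, adjusted p = 0.631) in the EEM stayed short of the threshold. In the ED the outcome turned on single embryos: the adjusted p was 0.0368 without IVPF10 (log2 difference 1.06) and 0.0281 without VE5 (1.13). Without VE6, the lowest of the IVV discs, it was 0.172 (0.76), and with the XIST level as a covariate 0.942 (0.31). In embryos with both tissues only it was 0.00887 (1.155), the 1 of 12 alternative fits in which PTGES passed in the ED.

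PTGES2 (Entrez gene 493639), a second membrane-associated synthase, had medians of 29.0 and 36.4 CPM in IVP and IVV discs and of 48.0 and 53.9 CPM in IVP and IVV membranes. PTGES3 (Entrez gene 493638), the cytosolic synthase that is also the HSP90 cochaperone p23, had medians of 667 and 598 CPM in the discs and 612 and 758 CPM in the membranes, in the same order. For both genes most IVP and IVV libraries lay in the same range. Log2 differences were 0.072 (SE 0.29) and 0.074 (SE 0.20) in the ED and -0.059 (SE 0.25) and -0.17 (SE 0.21) in the EEM, with adjusted p from 0.903 to 0.990.

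SLCO2A1 (Entrez gene 282468), the prostaglandin transporter, followed in the disc just short of the threshold. Its lowest, median and highest levels in the ED were 4.70, 39.7 and 48.4 CPM in IVP and 6.03, 13.3 and 31.9 CPM in IVV embryos, and in the EEM 6.31, 36.6 and 90.4 CPM in IVP and 10.5, 31.9 and 55.8 CPM in IVV embryos. In the discs 4 of 7 IVP libraries lay above every IVV library and IVPF10 lay below all of them, whereas in the membranes the IVP range enclosed that of IVV. The log2 difference was 1.14 (SE 0.35, adjusted p = 0.0526) in the ED and 0.40 (SE 0.38, adjusted p = 0.814) in the EEM. In the ED it passed in 6 of 12 alternative fits, among them DESeq2 (adjusted p = 0.0166), and also without IVPF10 (1.41, adjusted p = 0.00381), IVPF15 (1.25, adjusted p = 0.0473) or VE5 (1.36, adjusted p = 0.0153). It did not pass in the other 6 fits or without any of the other 13 embryos, and with the XIST level as a covariate it was 0.66 (adjusted p = 0.730).

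**Figure D3:**
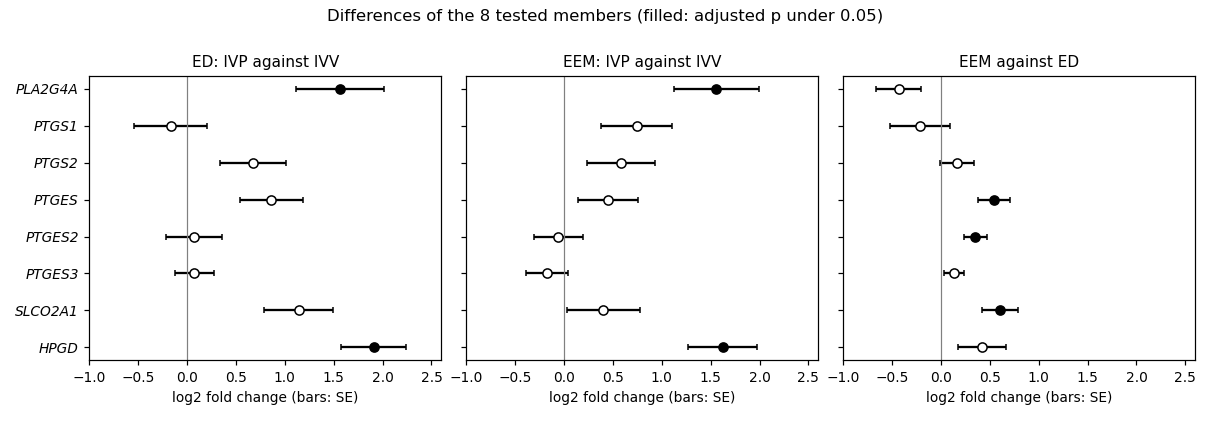
Log2 fold changes with SE bars of the 8 tested members for IVP against IVV in the ED, IVP against IVV in the EEM, and EEM against ED, filled where the adjusted p was under 0.05. PLA2G4A and HPGD are filled in both comparisons of the procedures, and PTGES, PTGES2 and SLCO2A1 in the comparison of tissues.

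Markers of the cell types in the sections were read beside these values. Of the 9 tested epiblast and early mesoderm markers, 5 were lower in IVP discs, and their summed level was 102 to 213 CPM in IVP and 112 to 575 CPM in IVV discs. Of the 13 trophoblast markers 0 were called in either tissue and none was at 0, but their median log2 fold change was 0.35 for the ED and 0.26 for the EEM, in the same direction as that of the members. Of the hypoblast markers 1 of 10 was lower in IVP in each tissue, CUBN in the ED and TTR in the EEM. In the ED 1 of 7 genes listed as maternal uterus markers (MSX1) and 1 of 2 listed as maternal blood markers (CD74) were also lower in IVP. Both had more in IVV discs than in IVV membranes, with medians of 23.7 and 2.75 CPM for MSX1 and of 2.21 and 0.197 CPM for CD74. Whether their transcripts came from the cow or the embryo was not tested. IVPF10, the disc with the lowest PTGS2, PTGES, SLCO2A1, PLA2G4A and HPGD among IVP discs, also had the lowest summed trophoblast level, 11618 CPM. Most of this sum was KRT8 (4225.5 CPM), KRT18 (3407.3 CPM) and TKDP1 (2747.3 CPM). IVPF10 was the lowest IVP disc for 7 of the 13 trophoblast markers, KRT8, KRT18 and TKDP1 among them. For CDX2, GATA2, TFAP2C, ASCL2 and HAND1 the lowest IVP disc was IVPF14. VE19 had the highest summed level of 8 maternal uterus markers, 368 CPM in the disc and 353 CPM in the membranes, but 1 gene, FXYD4, made up 340 CPM of each. The other 7 summed to 28.0 and 12.9 CPM in VE19, inside the IVV ranges of 14.7 to 36.2 and 5.75 to 13.3 CPM. The part of these levels in the differences of the members was not tested.

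The second comparison set the membranes against the disc within the 13 embryos (5 IVP and 8 IVV) that gave both tissues, with the embryo as a block. PTGES, PTGES2 and SLCO2A1 were higher in the EEM, so that 3 of 8 members were higher and 0 of 8 lower, where 10.1% of the 16784 genes tested were higher and 14.4% lower in the EEM. PTGES was higher by 0.54 on the log2 scale (SE 0.16, 1.46-fold, adjusted p = 0.0187) and its CPM was higher in the membranes of 10 of 13 embryos. PTGES2 was higher by 0.35 (SE 0.12, 1.28-fold, adjusted p = 0.0324), also in 10 of 13 embryos. For SLCO2A1 the difference was 0.61 (SE 0.19, 1.52-fold, adjusted p = 0.0238), again in 10 of 13. The median over the 8 members was 0.26, and over all genes 0.091. Of 13 trophoblast markers 4 were higher and 1 lower in the EEM, with a median of 0.32. Of 11 hypoblast markers 2 were higher and 5 lower, with a median of -0.27. The part of these cell types in the differences of the members was not tested.

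These tissue differences were small and depended on how libraries were scaled. With upper quartile factors the median over all genes moved to -0.033, the share of called genes that were higher in the EEM fell from 41.2% to 15.3%, and the differences of PTGES, PTGES2 and SLCO2A1 were 0.42, 0.23 and 0.48, with 0 of 8 members called. Without the block 1 of 8, PTGES, was called. Leaving out VE19, VE26, VE29 or VE4 left PTGES alone, and leaving out VE28 left SLCO2A1 alone. PTGES2 also lost its call without IVPF13 or VE5, and SLCO2A1 without VE3. In further fits PTGES2 lost its call with DESeq2 size factors, with no filter on low counts and in IVV embryos only. It was called in 3 of 10 alternatives other than left-out embryos.

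The other tested members did not separate the tissues. PLA2G4A was lower in the membranes than in the disc in 10 of 13 embryos, but its difference of -0.43 (SE 0.23, adjusted p = 0.175) did not pass. HPGD (0.42, SE 0.24, adjusted p = 0.217), PTGS2 (0.16, SE 0.18, adjusted p = 0.522), PTGES3 (0.13, SE 0.11, adjusted p = 0.374) and PTGS1 (-0.21, SE 0.30, adjusted p = 0.630) did not pass either.

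**Figure D4:**
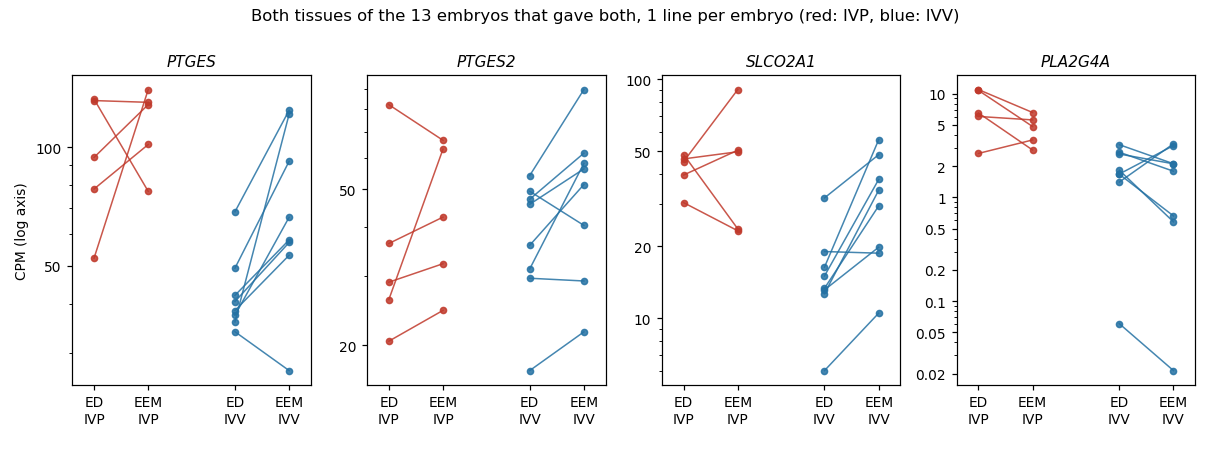
CPM (log axes) of PTGES, PTGES2, SLCO2A1 and PLA2G4A in the ED and EEM of the 13 embryos that gave both tissues, 5 IVP (red) and 8 IVV (blue), with a line joining the tissues of 1 embryo. The lines of SLCO2A1 rise in 7 of 8 IVV and 3 of 5 IVP embryos, and VE19 is the lowest line for PLA2G4A.

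Whether the procedure changed the members differently in the 2 tissues was tested as an interaction in the same 26 libraries. Of the 8 members 0 passed, where 1.02% of 16784 genes did. At an unadjusted p under 0.05 it was SLCO2A1 alone: its difference between IVP and IVV embryos was lower in the EEM than in the ED by 0.91 on the log2 scale (SE 0.33, unadjusted p = 0.0113, adjusted p = 0.251), and DESeq2 and limma called 0 of 8 as well. Fitted apart, SLCO2A1 was higher in the EEM by 0.89 in IVV embryos (adjusted p = 0.00209) and differed by -0.010 in IVP embryos (adjusted p = 0.993). PTGS1 had the largest fitted interaction, 1.01 (SE 0.58, adjusted p = 0.601), on the low counts given above.

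The levels of several members went together from embryo to embryo. Over the 16 ED libraries the Pearson r of log2 CPM was 0.78 between PTGS2 and PLA2G4A, 0.75 between PTGS2 and SLCO2A1 and 0.78 between PTGES and SLCO2A1. Over the 14 EEM libraries these were 0.54, 0.71 and 0.68, and PTGS2 and PTGES had 0.79 there against 0.39 in the ED. PTGS2 and PLA2G4A are also close neighbours in the RefSeq table of ARS-UCD2.0, with 1 gene between them, which is not protein-coding. HPGD had an r of 0.64 to PTGES and 0.63 to SLCO2A1 in the ED, and of 0.0099 and -0.23 in the EEM. Since VE19 and IVPF10 were low in several members, the values were also taken without them, a choice made after seeing the data, over 14 ED and 13 EEM libraries. In the ED PTGS2 and PLA2G4A then had 0.79, PTGES and SLCO2A1 0.79, and PTGS2 and SLCO2A1 0.46, and in the EEM these were 0.37, 0.68 and 0.65. PTGS2 and PTGES had 0.16 in the ED and 0.80 in the EEM without them, and the r of HPGD and PLA2G4A in the ED went from 0.39 to 0.80. The points share the procedure groups, so these values are descriptions only.

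Deviations from the group means were also compared between the disc and the membranes of the 13 embryos. The r of these deviations was 0.74 for PTGES2 and 0.72 for PTGES3, and 0.73 and 0.72 without VE19. For PLA2G4A it was 0.81 over all 13 embryos but 0.19 over the 12 without VE19, so that the value rested on that embryo. SLCO2A1, HPGD and PTGS2 had 0.64, 0.48 and 0.47, and 0.44, 0.32 and 0.28 without VE19. PTGES had 0.28 and PTGS1 -0.063 over all 13 embryos, and 0.27 and -0.31 without VE19.

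The genes whose log2 CPM over the 30 libraries ran most like that of PTGS2, among 14506 genes measured in both tissues, were MRAS, a small GTPase of the Ras family (r = 0.87), PECAM1, a cell adhesion molecule (0.85), C8H8orf58 (0.83), ADGRL3, a latrophilin adhesion receptor (0.83), and ZXDB, a zinc finger protein (0.83). Within the ED the r with MRAS was 0.93 and within the EEM 0.81.

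PPARG (Entrez gene 281993) was listed at 0 in 30 of 30 libraries, as were 9.02% of the 18390 protein-coding genes with a symbol, and no level or comparison can be given for it. Whether its transcripts were lacking or its reads were not assigned to it cannot be told apart from these counts.

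PTGER2 (Entrez gene 282329), the receptor, was at the edge of detection, with 0 to 8 counts per library. At most 3 counts were seen in 5 of 7 IVP discs, 8 of 9 IVV discs, 6 of 6 IVP membranes and 7 of 8 IVV membranes, and no fold change is given. The highest counts, 8 and 6, came from the discs of IVP14 and IVPF14.

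The rest of the pathway was read from lists of genes by role. Over all lists, 1.16% of 86 tested genes were higher and 6.98% lower in IVP discs, near the shares over all genes of 1.4% and 4.95%. In the EEM 1.28% of 78 were higher and 2.56% lower, beside 2.29% and 1.52% of all genes. The counts per list describe single genes. Apart from PLA2G7 without VE19, their calls were not followed under other settings or without single embryos, as those of the members were. For release and supply of arachidonate, 20 listed genes were tested in the ED with 0 called. In the EEM 1 of 19 was called: PLA2G7, a secreted phospholipase that breaks down platelet-activating factor, was higher in IVP by 2.06 (SE 0.40, adjusted p = 0.00233), with 43.5 to 266 CPM in IVP and 2.37 to 56.2 CPM in IVV membranes. The lowest of these was VE19, and without it the lowest was 22.7 CPM and the difference 1.82 (SE 0.28, adjusted p = 1.62e-08). Of the other prostanoid synthases, 1 of 5 tested was called in the ED, CBR3, a carbonyl reductase, which was lower in IVP by 1.46 on the log2 scale (adjusted p = 0.00597), and 0 of 6 in the EEM. AKR1B1, a prostaglandin F synthase of cattle, had medians from 831 to 1076 CPM over the 4 groups, and its differences of -0.086 in the ED and -0.032 in the EEM passed no test.

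Among genes of prostaglandin breakdown and transport, 2 of 6 were lower in IVP discs. PTGR1, which reduces the products of HPGD, had a log2 difference of -0.93 (SE 0.26, adjusted p = 0.0315), with 56.5 to 140 CPM in IVP and 70.6 to 246 CPM in IVV discs. SLCO4A1, an organic anion transporter, differed by -1.47 (SE 0.42, adjusted p = 0.0368) in the ED and by -1.73 (SE 0.37, adjusted p = 0.00523) in the EEM, where 1 of 5 genes was called. Receptors gave 0 of 6 in the ED and 0 of 4 in the EEM. PTGFR, the prostaglandin F receptor, came closest, at -1.27 in the ED (adjusted p = 0.0507). In the lipoxygenase branch ALOX5, the leukotriene-forming enzyme, was lower in IVP discs by 1.75 (SE 0.50, adjusted p = 0.0356). Its lowest count was 3 in the IVP discs, which is at the floor of 3 counts or fewer, and 12 in the IVV discs. It was 1 of 6 tested in the ED, with 0 of 4 called in the EEM.

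Around PPARG, 1 of 17 tested receptors and coregulators was called in the ED: PPARA, the fatty acid receptor of oxidation genes, was lower in IVP discs by 1.71 (SE 0.49, adjusted p = 0.0366), with medians of 0.482 and 0.975 CPM. In the EEM it was 1 of 15, the coactivator PPARGC1A, lower in IVP by 1.07 (SE 0.27, adjusted p = 0.0229), with 1.16 to 4.67 CPM in IVP and 5.13 to 6.23 CPM in IVV membranes, ranges that did not overlap. Of the PPAR target genes 2 of 26 were called in the ED and 0 of 25 in the EEM. SCD, a fatty acid desaturase, was higher in IVP discs by 0.83 (SE 0.23, adjusted p = 0.0315) and ANGPTL4, an inhibitor of lipoprotein lipase, was lower by 1.86 (SE 0.48, adjusted p = 0.0209). FABP4, a fatty acid binding protein and usual PPARG target, was listed at 0 in all libraries.

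Between the tissues 13.2% of 91 listed genes were higher in the EEM and 14.3% lower, near the 10.1% and 14.4% of all genes. Of 20 genes of arachidonate release and supply, 6 were higher and 2 lower in the EEM, with a list median of 0.26. ACSL4, which activates arachidonate, was higher by 0.63 (SE 0.086, adjusted p = 1.76e-05). PLA2G3, a secreted phospholipase (-3.67, SE 0.39, adjusted p = 9.98e-07), and PLA2G12B (-1.81, SE 0.31, adjusted p = 0.000189) were lower. Of 6 genes of breakdown and transport 1 was higher and 3 lower, among them SLCO4A1 (-1.41, SE 0.23, adjusted p = 0.000138) and SLCO3A1. The median of SLCO3A1 was 0.484 and 0.731 CPM in the IVP and IVV discs, and no membrane library exceeded 0.0801 CPM. SLCO3A1 was at 3 counts or fewer in 13 of the 26 libraries, and on simulated data most false calls between the tissues fell on genes that low. Of 7 receptor genes 1 was called, PTGFRN, a regulator of the prostaglandin F receptor, lower by 1.14 (SE 0.15, adjusted p = 1.44e-05). Of 28 PPAR target genes 2 were higher and 4 lower, with LPL, lipoprotein lipase, at -2.30 (SE 0.28, adjusted p = 4.09e-06) and its inhibitor ANGPTL4 at -3.51 (SE 0.47, adjusted p = 1.54e-05). In the synthase and lipoxygenase lists 1 of 6 and 2 of 6 were called, and 3 of 18 PPAR and RXR receptors and coregulators. No gene of these lists passed the test of the interaction.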

How the data were processed

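The deposited values are raw counts per gene and library, which the authors made from non-stranded, poly(A)-selected paired reads (DNBSEQ) by filtering with SOAPnuke, alignment with STAR 2.7.0b to ARS-UCD1.3 and counting with featureCounts (Subread 2.0.3). The submitters' processing notes also name FastQC 0.11.9 and Trimmomatic. Since the libraries carry no strand, reads of overlapping genes cannot be assigned by strand. Counts were used without change for 30 libraries of 48713218 to 63037371 counts, and symbols were taken by Entrez gene ID from RefSeq of ARS-UCD2.0, with no coordinates used beyond which genes are neighbours.

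All fits used edgeR 4.0.16 in R 4.3.3: TMM factors, filterByExpr with at least 10 counts, the quasi-likelihood test and Benjamini-Hochberg adjustment over all genes tested at 0.05. The procedures were set against each other within a tissue with 1 surrogate variable (sva 3.50.0), since the study controlled for morphology with sva and DESeq2. EEM and ED were compared in 13 embryos with the embryo as a block, as was the interaction. The pieces pair by embryo: the correlation of their deviations from the group means had a median of 0.50, with the IVPF13 pair at -0.25 and the others at 0.32 or above, and 12 of 13 discs correlated best with the membranes of their own embryo. SE values are the log2 fold change over the square root of F. Log2 CPM used a prior count of 2, and a gene was at the floor at 3 counts or fewer. Intervals for counting error were not needed beyond that floor, which covers counting error only.

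The members and the gene lists were chosen with earlier results of these data known. All members were named, at most 8 genes past the threshold per comparison were named from the lists by smallest p, and the genes most like PTGS2 were the 5 with the highest r. AKR1B1, PTGFR, FABP4, CD36, XIST, PTGDR and single marker genes were chosen after their values were seen. Alternatives were DESeq2 1.42.0, limma 3.58.1 with voom, other numbers of surrogate variables, other scaling and filters, halved counts, the last letter of the sample titles as a term, XIST as a covariate, subsets of embryos and leaving out each embryo. The scripts were tested on simulated data with 200 changed genes, where false calls between the tissues were more frequent than the threshold allows, most of them on genes at the floor in many libraries. A withheld item is not reported here.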

Additional observations from a re-analysis of the deposited data

Results flagged for a closer look

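Of the 32 pairs of a tested member and a group, 6 had a lowest library that lay apart from the rest by Dixon's ratio on log2 CPM, where chance flags about 1 in 20 groups. VE19 was that library for PLA2G4A in the ED (0.0605 CPM, next lowest 1.40 CPM) and in the EEM (0.0214 CPM, next 0.580 CPM) of IVV embryos, and for PTGS2 in the ED (497 CPM, next 1419 CPM). Other embryos stood apart in 1 gene each: VE6 for PTGES in IVV discs (11.2 CPM, next 33.9 CPM), VE5 for HPGD in IVV membranes (0.136 CPM, next 0.510 CPM) and IVPF10 for SLCO2A1 in IVP discs (4.70 CPM, next 24.9 CPM). The tests of these genes without VE19, VE6, VE5 or IVPF10 stand beside the results.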

How the results depend on the processing

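The direction of HPGD and PLA2G4A in IVP against IVV was the same in every fit, and HPGD in the ED was called in 12 of 12 alternatives and without each of 16 embryos. In the ED the 2 members called became 1 with limma, with at least 10 counts in every library (which removes PLA2G4A) and with XIST as a covariate, and 4 in embryos with both tissues only. Leaving out single embryos gave 1 to 4. In the EEM the 2 became 1 with no surrogate variable and with DESeq2, and 0 with at least 10 counts in every library (which removes both genes) and with XIST as a covariate, with 1 to 2 over single embryos. For EEM against ED the 3 became 1 without the replicate block, 1 with at least 10 counts in every library, 0 with upper quartile factors and 0 in IVP embryos only, with 1 to 3 over single embryos, while the interaction stayed at 0. The fit without the block called 2127 genes in place of 4104, of which 6.82% were higher in the EEM in place of 41.2%, and in IVP embryos only it was 20 of 488. Of the genes called between IVP and IVV, the share higher in IVP was 22.0% in the ED, with 7.90% under the XIST covariate, and 60.1% in the EEM, with 48.9% under no surrogate variable and 36.8% under the XIST covariate. Over all genes the alternatives other than left-out embryos called 504 to 1759 (998 as reported) in the ED, 144 to 1181 (561) in the EEM and 11 to 435 (172) for the interaction, and 488 to 4630 (4104) between the tissues. Directions turned only for values that passed no test, with SLCO2A1 between tissues as the exception. PTGES2 in the ED was -0.057 with limma and -0.097 in embryos with both tissues, and -0.33 to 0.23 over single embryos. In the EEM PTGES2 was 0.042 with 2 surrogate variables, 0.049 with the title letter and -0.15 to 0.065 over single embryos, and SLCO2A1 was -0.12 (without IVPF13) to 0.66. In IVP embryos only, EEM against ED was 0.35 for PTGS1, -0.022 for PTGS2, -0.094 for PTGES3 and -0.010 for SLCO2A1. For the interaction PTGES2 was -0.10 without the replicate block, -0.0078 with DESeq2 and with its size factors and -0.041 with no filter, and over single embryos -0.23 to 0.12, against -0.49 to 0.029 for PTGS2 and -0.40 to 0.095 for PLA2G4A. The cause of these changes was not tested where the setting itself does not show it.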

Other observations

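PTGDR, a receptor for prostaglandin D2 that did not pass the filter, had more than 1 count in the discs of 4 IVP embryos and in no other library, and was noticed after its values were seen. Its counts were 44 in IVP14, 70 in IVPF10, 35 in IVPF13 and 35 in IVPF15, and 0 in the other 3 IVP discs. The 9 IVV discs had 0 or 1 count, and the 6 IVP and 8 IVV membrane libraries had 0. No test was made. CD36, a fatty acid transporter on the list of PPAR targets, ran from 0 to 65.7 CPM, with medians of 24.7 and 0.841 CPM in IVP and IVV discs and of 28.6 and 9.59 CPM in IVP and IVV membranes, and its differences of 2.16 (adjusted p = 0.301) and 1.38 (adjusted p = 0.669) passed no test.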
